A study of Mus musculus with 12 samples.

Results

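The genes that mark the distal tip progenitors of the embryonic lung, *Sox9*, *Id2*, *Etv4*, *Etv5*, *Mycn*, *Sox11* and *Sox4*, were followed by RNA sequencing of whole mouse lung. They were taken by symbol and are 7 of the 16152 genes with deposited counts, and all 7 passed the filter on low values that left 15994 genes for testing. RNA came from lungs of unmodified C57BL/6 mice of both sexes at 2 embryonic (E15.5, E18.5) and 2 postnatal (P5, P8) days. Each time-point had 3 replicates taken from 1 litter, which gave 12 libraries, and time-point and litter cannot be told apart. P-values therefore measure the spread between littermates.

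In the branching lung the epithelium at the tips of the buds holds progenitors that divide, feed the stalks behind them with cells, and later give rise to alveolar cells. FGF10 from the surrounding mesenchyme acts on the receptor FGFR2 in these tips, and the ETS factors ETV4 and ETV5 are transcribed in response. SOX9 and ID2 are the classical labels of the tip, and MYCN is a growth-promoting factor of the MYC family that is needed there. SOX11 and SOX4 form, with SOX12, the SOXC group of transcription factors, which many immature cell types share. None of the 7 is restricted to the tip: SOX9 is also the main regulator of cartilage, ETV5 is kept in alveolar type 2 (AT2) cells, and ID2 and SOX4 are found in immune and mesenchymal cells. In whole lung, fewer cells of a type and less RNA per cell cannot be told apart.

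The genes lie on 4 chromosomes of the mm10 assembly. *Mycn* (chr12:12936093-12941914), *Id2* (chr12:25093799-25097140) and *Sox11* (chr12:27334264-27342574) are all on the minus strand of chromosome 12. *Sox9* (chr11:112782224-112787760, plus strand) and *Etv4* (chr11:101769742-101785371, minus strand) are on chromosome 11. *Etv5* (chr16:22381309-22439719) and *Sox4* (chr13:28948919-28953713) are on the minus strand of their chromosomes. *Sox4* shares exonic bases with the non-coding gene *Gm26735* on the opposite strand, which was at 0 CPM (counts scaled to the mapped reads of a library) in all 12 libraries. Whether the reads were counted by strand is not given in the sources used here.

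The starts of 4 of these genes are printed because *Mycn*, *Sox11* and *Etv5* were lower after birth and *Sox4* was not, as the values below give. Each run holds bases upstream of the annotated start in the RefSeq sequence of GRCm38.p6, read 5′ to 3′ along the gene's strand. Each overlaps 0 annotated exons. The *Mycn*, *Etv5* and *Sox4* runs lie next to the gene positions given above. The *Sox11* run lies further upstream, from 27342719, where the position above ends at 27342574. Capitals mark a GC box (GGGCGG) or a CCAAT box (CCAAT), on either strand, so that a CCAAT box on the other strand reads ATTGG.
Mycn, chr12:12941915-12942064, minus strand: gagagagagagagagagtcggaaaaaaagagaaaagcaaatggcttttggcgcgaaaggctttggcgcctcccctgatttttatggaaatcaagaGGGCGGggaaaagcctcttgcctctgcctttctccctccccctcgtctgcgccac
Sox11, chr12:27342719-27342868, minus strand: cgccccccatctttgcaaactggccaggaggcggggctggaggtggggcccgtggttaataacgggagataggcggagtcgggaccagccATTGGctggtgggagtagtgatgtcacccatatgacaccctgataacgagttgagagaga
Etv5, chr16:22439720-22439820, minus strand: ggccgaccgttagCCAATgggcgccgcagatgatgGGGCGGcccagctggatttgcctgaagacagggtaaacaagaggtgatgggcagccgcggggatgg
Sox4, chr13:28953714-28953863, minus strand: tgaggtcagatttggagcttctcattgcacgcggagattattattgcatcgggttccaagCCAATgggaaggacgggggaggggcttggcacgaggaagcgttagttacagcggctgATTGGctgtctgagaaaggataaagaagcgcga

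The RefSeq table gave windows for 5 of the 7 members, all but *Sox9* and *Etv4*. In the whole 250 bases upstream of the start, *Sox4* held 4 CCAAT boxes and 0 GC boxes, and *Mycn* held 2 GC boxes and 0 CCAAT boxes. *Sox11* held 1 CCAAT box and 2 GC boxes, and *Etv5* held 3 of each at its first start. At its second start *Etv5* held 1 CCAAT box and 0 GC boxes. *Id2* held 3 CCAAT boxes and 1 GC box. Of 32851 such windows over all genes, 33.8% held a CCAAT box and 32.7% a GC box. The windows of these 5 were searched on both strands for 1 exact string per motif. The strings were CCGGAAG for ETS, ACAATG for SOX, CACGTG for the E-box, GCGGGAA for E2F and TATAAA for the TATA box. All gave 0 matches. Other spellings of these motifs were not searched, so the motifs may still be present. The exact strings stood in 6.91%, 10.7%, 6.02%, 3.82% and 12.4% of all windows. The window richest in G and C was that of the first *Etv5* start (71.2%, with 62% at its second). The median over all windows was 52.4%, and *Sox4* had 50.8%. A match of letters is a description of the window and not a bound site.

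The libraries held 41337443 to 53901957 counts on the 16152 genes. Genes of the thymus, a neighbouring organ, stood apart in 3 libraries. The summed level of 12 thymus genes was 52.0 CPM in E15.5 replicate 2, 235 in P8 replicate 1 and 441 in P8 replicate 2, against 6.95 to 25.9 CPM in the other 9. P8 replicates 1 and 2 also held more of the cartilage gene *Col2a1*, at 50.5 ± 44.8 CPM over the 3 libraries with a lowest value of 4.27 in replicate 3. Results at E15.5 and P8 are given with and without these 3 libraries where a call changed. Leaving them out keeps 2 libraries at E15.5 and 1 at P8, whose spread is then assumed to be like that of the other groups.

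*Sox9* showed the largest fall of the 7. At E15.5 it stood at 55.1, 52.4 and 59.0 CPM in replicates 1, 2 and 3, and at E18.5 at 49.9, 36.8 and 33.3 CPM. After birth it stood at 4.22, 5.76 and 4.36 CPM at P5 and at 5.27, 6.76 and 5.59 CPM at P8. The 6 embryonic libraries all lay far above the 6 postnatal ones. From E18.5 to P5 *Sox9* was 7.93-fold lower, a log2 fold change of -2.99 ± 0.16 (SE; edgeR quasi-likelihood test, false discovery rate (FDR) = 1.4e-08). The step before birth was smaller, at -0.46 ± 0.15 (FDR = 0.042), and the 2 steps differed by -2.52 on the log2 scale (FDR = 1.3e-05). The E15.5 to E18.5 call was fragile: the FDR passed 0.05 in 9 of the 12 fits that left out 1 library and reached 0.137, with log2 fold changes between -0.66 and -0.34. It was 0.059 without the 3 libraries with thymus genes. From P5 to P8 the log2 fold change was 0.29 with an FDR of 0.24, and the libraries of both time-points overlapped.

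*Mycn* followed the same order of time-points with a shallower slope. It stood at 48.7, 51.2 and 55.7 CPM at E15.5, at 30.2, 34.5 and 38.6 CPM at E18.5, at 13.8, 16 and 15.2 CPM at P5 and at 16.6, 14.9 and 16.9 CPM at P8. The E15.5, E18.5 and P5 libraries formed 3 ranges without overlap, and P8 overlapped P5. *Mycn* fell by 0.59 on the log2 scale before birth (SE 0.09, FDR = 0.0020) and by 1.11 across birth (FDR = 4.4e-07). The second step exceeded the first by 0.53 log2 units in the downward direction (FDR = 0.016). Without E18.5 replicate 3, the highest of its group, that difference was -0.36 and its FDR 0.11. From P5 to P8 the log2 fold change was 0.09 (FDR = 0.54).

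*Id2*, which encodes an inhibitor that binds E proteins and keeps them off DNA, moved little. Its levels at E15.5 were 162, 168 and 164 CPM, and those at E18.5 were 125, 148 and 129 CPM. After birth they were 119, 127 and 126 CPM (P5) and 112, 116 and 128 CPM (P8). The E15.5 libraries stood above all 9 later ones, and the 3 later time-points overlapped. The fall before birth was 0.30 on the log2 scale (SE 0.06, FDR = 0.0082). Across birth the log2 fold change was -0.02 ± 0.06 (FDR = 0.79), and it turned to 0.05 without E18.5 replicate 2. Over the whole span *Id2* was 1.32-fold lower at P8 than at E15.5 (FDR = 9.8e-05).

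The 2 ETS genes of the FGF response parted. *Etv5* was the more abundant, at 372, 352 and 408 CPM at E15.5 and 327, 343 and 356 CPM at E18.5. It stood at 183, 185 and 162 CPM at P5 and at 156, 162 and 199 CPM at P8. No postnatal library reached the lowest embryonic one. *Etv5* fell by 0.87 on the log2 scale from E18.5 to P5 (SE 0.09, FDR = 3.5e-06), while the step before birth, -0.14, had an FDR of 0.31. The 2 steps differed by -0.73 (FDR = 0.0024).

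*Etv4* had its fall before birth. It stood at 26.7, 30.4 and 28.0 CPM at E15.5, at 20.2, 19.7 and 22.0 CPM at E18.5, at 15.7, 20.9 and 20.004 CPM at P5, and at 16.7, 16.5 and 17.7 CPM at P8. All 3 E15.5 libraries lay above the other 9, and E18.5 and P5 overlapped. *Etv4* fell by 0.45 on the log2 scale from E15.5 to E18.5 (SE 0.09, FDR = 0.0069). From E18.5 to P5 its log2 fold change was -0.05 ± 0.09 (FDR = 0.67), and it turned to 0.04 without P5 replicate 1. For both *Etv4* and *Id2* the birth step was less negative than the step before it, by 0.40 and 0.28 log2 units, and neither difference passed the threshold (FDR = 0.058 and 0.059). With DESeq2 in place of edgeR both did, at FDRs of 0.046 and 0.037.

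*Sox11* stayed level before birth and then declined at each step. It stood at 63.0, 63.9 and 80.2 CPM at E15.5, at 72.5, 59.97 and 62.0 CPM at E18.5, at 34.1, 39.5 and 41.5 CPM at P5 and at 24.4, 25.7 and 31.9 CPM at P8. The embryonic ranges overlapped, and below them P5 and P8 formed 2 separate ranges. The step from E15.5 to E18.5 was -0.08 on the log2 scale (FDR = 0.66), and it was 0.04 without E15.5 replicate 3. *Sox11* fell by 0.67 from E18.5 to P5 (SE 0.12, FDR = 3.2e-04) and by 0.50 from P5 to P8 (FDR = 0.018). It was the only member that passed the threshold in the last interval. That last call was lost in 4 of the 12 fits that left out 1 library (P5 replicate 2 or 3, P8 replicate 1 or 2; FDR up to 0.071). Without the 3 libraries with thymus genes the step, then 3 libraries against 1, was -0.29 (FDR = 0.34). The birth step differed from the step before it by -0.59 (FDR = 0.034), and this call was lost in 5 of the 12 fits, most of all without E18.5 replicate 1 (-0.40, FDR = 0.18).

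*Sox4*, its close relative, went down and came back. It stood at 172, 174 and 188 CPM at E15.5 and at 137, 143 and 137 CPM at E18.5. At P5 it stood at 148, 161 and 183 CPM and at P8 at 174, 169 and 175 CPM. All E18.5 libraries lay below those of the other 3 time-points. *Sox4* fell by 0.35 on the log2 scale before birth (SE 0.07, FDR = 0.0047) and rose by 0.32 across it (FDR = 8.5e-04). The difference between these steps was 0.67 (FDR = 5.9e-04), and *Sox4* was the only member of the 7 with a positive one past the threshold. P8 and E15.5 differed by 0.03 log2 units (FDR = 0.66), a value that turned to -0.04 when only library size was used for scaling.

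**Figure D1:**
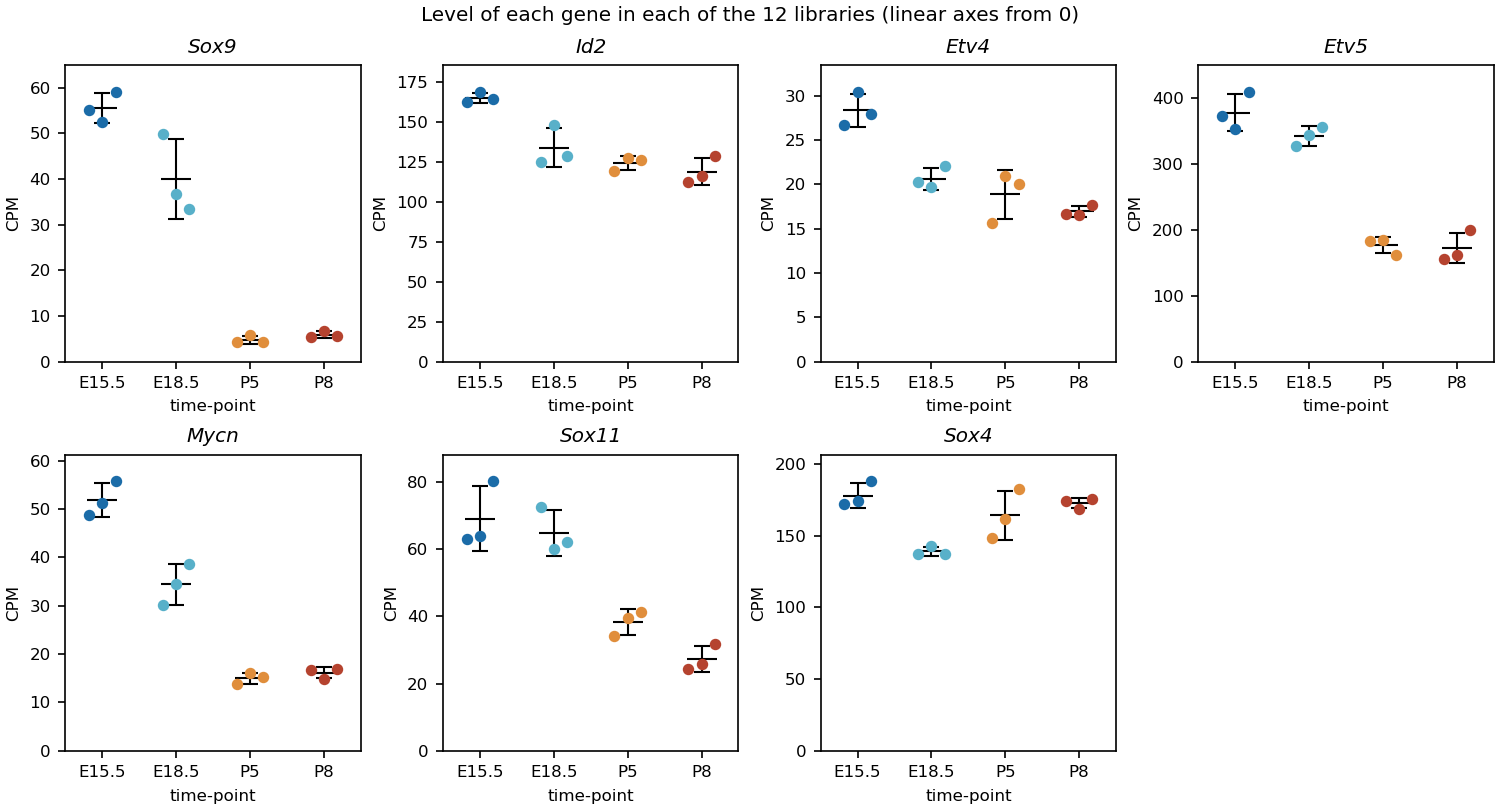
Levels of the 7 genes in CPM (vertical axis, linear from 0) at the 4 time-points (horizontal axis). Each point is 1 library, and the bars give the mean ± SD of 3. *Sox9* drops from 33.3 CPM or more to 6.76 CPM or less across birth, whereas *Sox4* has its lowest libraries at E18.5.

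Read together, 5 of the 7 genes fell before birth at an FDR below 0.05 (*Sox9*, *Id2*, *Etv4*, *Mycn*, *Sox4*) and 0 rose, where 9.87% of all tested genes fell and 11.6% rose. In these 5 all E18.5 libraries lay below all E15.5 ones, as they did for 19.8% of all genes. Across birth 4 fell (*Sox9*, *Mycn*, *Etv5*, *Sox11*) and 1 rose (*Sox4*), where 35.7% and 35.4% of all genes did. From P5 to P8 only *Sox11* fell, against a background of 8.21% falling and 9.75% rising. Between E15.5 and P8, 6 of the 7 fell and 0 rose, against 38.7% and 37.6% of all genes, and *Sox4* was the member that did not pass. The median log2 fold change of the 7 was -0.35, -0.67 and -0.05 in the 3 successive intervals and -1.06 over the span, beside medians over all genes between -0.02 and 0.00.

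With the study's second cutoff, an absolute log2 fold change above 1, fewer members remained. None of the 7 was called from E15.5 to E18.5, where 1.46% of all genes were called lower and 1.59% higher by edgeR. At an unadjusted p under 0.05 there were 5, and DESeq2 and limma called 0 with both cutoffs. Across birth *Sox9* and *Mycn* were called lower, 2 of 7 against 9.34% of all genes, and 0 were called higher against 17.5%. From P5 to P8, 0 of 7 were called, also by DESeq2 and limma, with 1 at an unadjusted p under 0.05. There 0.0875% of all genes were called lower and 2.88% higher. Over the span from E15.5 to P8 the genes called lower were *Sox9* (8.96-fold), *Mycn* (3.05-fold), *Sox11* (2.40-fold) and *Etv5* (2.08-fold), against 11.5% of all genes lower and 20.9% higher. *Etv5* was close to the cutoff, at -1.06, and missed it without E15.5 replicate 3 (-0.99), without P8 replicate 2 (-0.997) and without the 3 libraries with thymus genes (-0.89).

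The contrast of the 2 first steps separated the members by direction. The birth step was more negative than the step before it for *Sox9*, *Etv5*, *Sox11* and *Mycn*, where 25.2% of all genes had a negative difference past the threshold. It was more positive for *Sox4*, where 23.6% of all genes had a positive one. The count of 5 members ranged from 3 to 6 when single libraries were left out. It was 3 without E18.5 replicate 3, and all 7 passed with DESeq2.

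**Figure D2:**
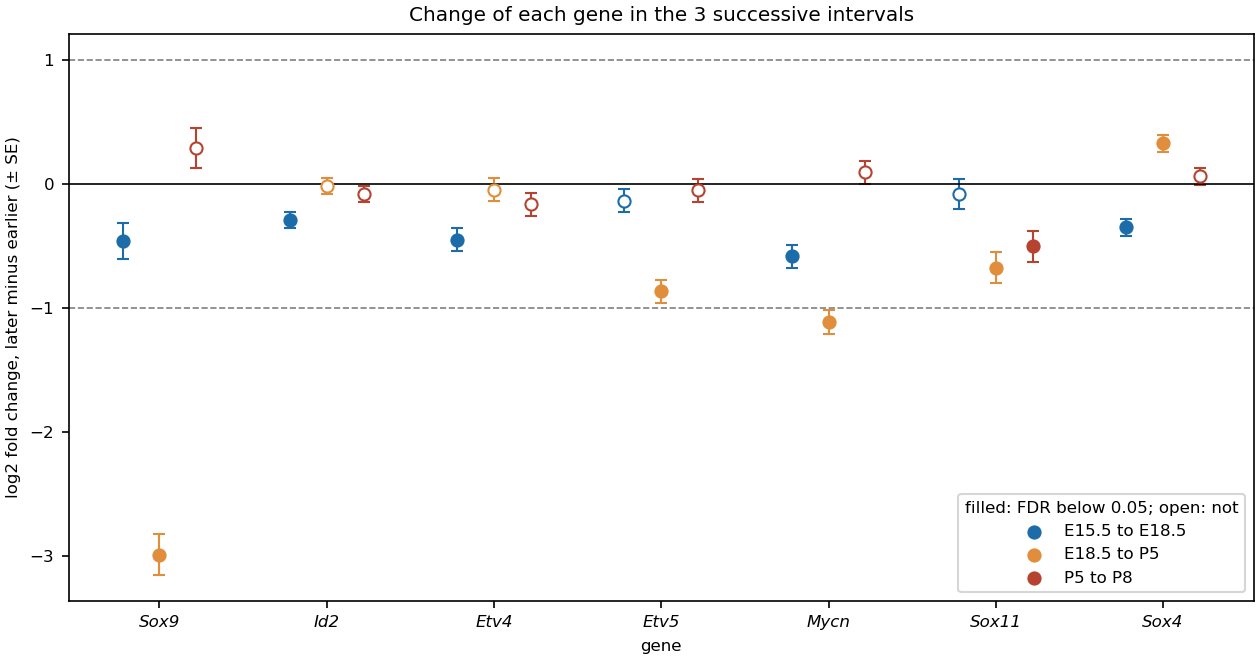
Log2 fold change of each gene, later minus earlier time-point (vertical axis, ± SE from the edgeR fit), in the 3 successive intervals. Filled points have an FDR below 0.05 and dashed lines mark an absolute log2 fold change of 1. Only *Sox9* and *Mycn* cross the lower line, both between E18.5 and P5.

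Scaled by exonic length, so that genes can be compared with each other, *Etv5* was the most abundant member before birth and *Id2* after it. At E15.5 the levels per kilobase were 92.0 ± 6.9 CPM for *Etv5*, 67.6 ± 1.3 for *Id2*, 37.1 ± 1.8 for *Sox4*, 15.7 ± 1.1 for *Mycn*, 13.4 ± 0.8 for *Sox9*, 9.14 ± 0.60 for *Etv4* and 8.30 ± 1.16 for *Sox11* (mean ± SD, n = 3). The libraries of *Etv4* and *Sox11* overlapped, and the other neighbours in that order did not. At E18.5 *Mycn*, *Sox9* and *Sox11* formed a chain of overlapping neighbours between 10.5 and 7.80 CPM per kilobase. At P8 *Id2* (48.7 ± 3.5) and *Etv5* (42.0 ± 5.7) overlapped at the top, and *Sox9* was last at 1.42 ± 0.19 CPM per kilobase.

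Ratios of 2 genes within a library do not depend on its size, and 12 of them were compared between the 6 embryonic and 6 postnatal libraries by an exact two-sided permutation test. The smallest p that 6 against 6 can give is 0.0022, which becomes 0.0029 after Benjamini-Hochberg adjustment over the 12. Each side joins 2 time-points of 1 litter each, and the test takes littermates as separate units. Its p-values therefore describe these 12 libraries and not embryonic or postnatal lungs in general. *Sox11* fell against its SOXC relative *Sox4*. The *Sox11* to *Sox4* ratio of counts was 0.366, 0.368 and 0.427 at E15.5 and 0.529, 0.420 and 0.453 at E18.5. It was 0.230, 0.245 and 0.227 at P5 and 0.140, 0.153 and 0.182 at P8. The mean was 2.21-fold lower after birth (exact permutation, adjusted p = 0.0029), in 6 of 6 libraries.

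*Etv4* rose against *Etv5*. There were 0.0718, 0.0863 and 0.0685 reads on *Etv4* per read on *Etv5* at E15.5 and 0.0618, 0.0574 and 0.0619 at E18.5. After birth there were 0.0858, 0.113 and 0.123 at P5 and 0.107, 0.102 and 0.0889 at P8. The ratio was 1.52-fold higher after birth (exact permutation, adjusted p = 0.0052), although E15.5 replicate 2 stood above P5 replicate 1. *Etv5* was 2.42-fold lower relative to *Spry2*, which encodes a feedback inhibitor of FGF receptors (adjusted p = 0.0029, exact permutation).

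*Id2* was lower after birth relative to its family members *Id1* (1.54-fold) and *Id3* (1.32-fold), each with an adjusted p of 0.0029 by exact permutation and no overlap. The *Mycn* to *Myc* ratio lay between 0.532 and 1.11 over the 12 libraries, and postnatal and embryonic libraries differed by 0.01 log2 units (exact permutation, adjusted p = 0.97). Its P8 values spread most, at 0.713, 0.532 and 1.08, with the 2 lowest in the libraries with thymus genes. Without the 3 thymus-gene libraries the difference was 0.28 (adjusted p = 0.035, exact permutation). Relative to *Mki67*, a marker of dividing cells, *Mycn* differed by -0.33 log2 units between embryonic and postnatal libraries (exact permutation, adjusted p = 0.31). That ratio was highest at E15.5, at 0.133, 0.226 and 0.137, and lay between 0.0645 and 0.115 in the 9 later libraries. The E15.5 values depend in part on the marker chosen. The mean level of *Mki67* was higher at E18.5 (444 ± 29 CPM) than at E15.5 (334 ± 95 CPM, lowest library 227). Over that step the 12 dividing-cell genes summed below, *Mki67* among them, had a median log2 fold change of -0.19, and 5 fell and 0 rose. Ratios of *Mycn* to the other dividing-cell genes were not tested.

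The ratio to an epithelial gene depended on which gene was used. *Sox9* was lower after birth relative to *Epcam* (-1.51 log2 units) and relative to *Cdh1* (-3.42), and both passed the exact permutation test at adjusted p values of 0.0029 and 0.0037. *Id2*, *Etv4* and *Etv5* were higher relative to *Epcam*, by 1.35, 1.201 and 0.59 log2 units, each at 0.0029 by the same permutation test. Relative to *Cdh1* they were lower, by -0.55, -0.70 and -1.31, and only *Etv5* passed (exact permutation, adjusted p = 0.099, 0.072 and 0.0037). *Epcam* itself was 3.08-fold lower at P5 than at E18.5 (FDR = 1e-09), while *Cdh1* had a log2 fold change of -0.21 (FDR = 0.095). The fall of *Epcam* was the largest among the 8 general epithelial genes summed below, whose median was -0.28. *Cdh1* had risen before birth, by 0.77 from E15.5 to E18.5 (FDR = 0.0012), and over that step the mean ratios of all 4 genes to it decreased. That rise was the largest among the same 8 genes, whose median was then 0.13. From E18.5 to P5 alone the mean log2 ratio to *Cdh1* went from -0.76 to -0.57 for *Id2* and from -3.46 to -3.30 for *Etv4*, both with overlapping libraries, and from 0.59 to -0.07 for *Etv5*. Those 3 against 3 values were not tested. Between all embryonic and all postnatal libraries, *Sox9* was the gene of these 4 with the same direction for both references.

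**Figure D3:**
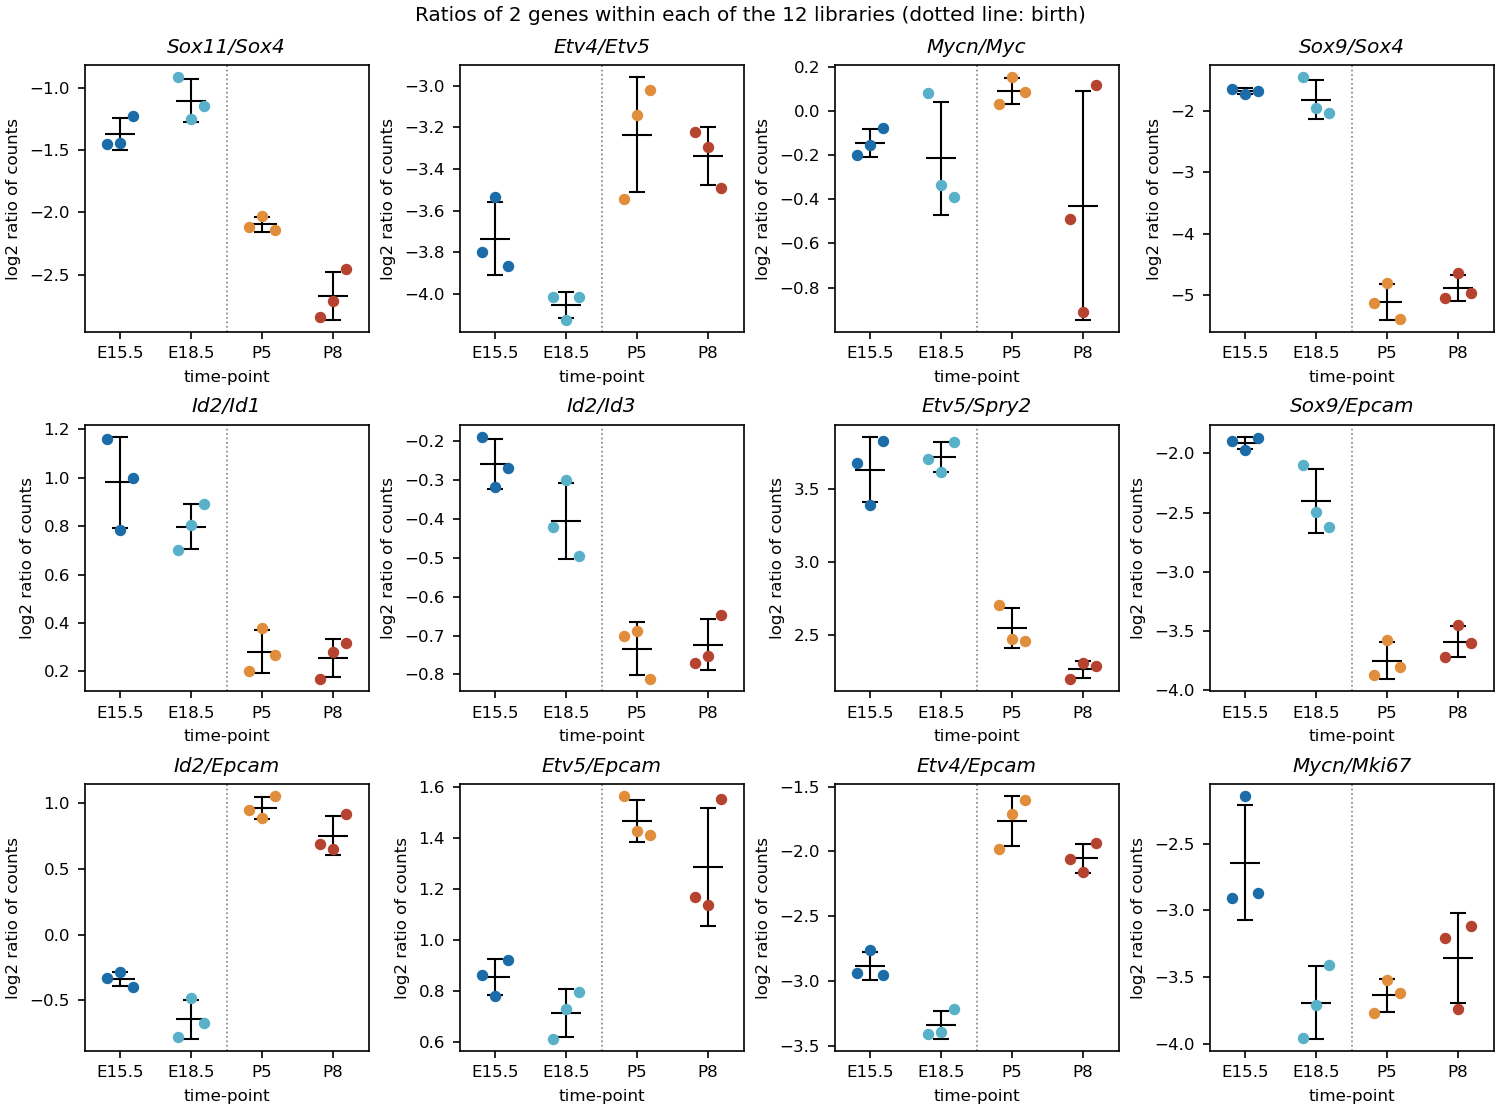
Log2 ratio of the counts of 2 genes within each library (vertical axis) at the 4 time-points, for the 12 ratios tested. Points are libraries, bars the mean ± SD of 3, and the dotted line marks birth. *Sox9* to *Sox4* and *Sox11* to *Sox4* step down at the line, *Etv4* to *Etv5* steps up, and *Mycn* to *Myc* overlaps across it with its widest spread at P8.

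Genes that work beside the members were read from 6 lists with 86 genes, of which 78 were tested. From E15.5 to E18.5 edgeR called 0 of the 78 with both cutoffs, and 42 had an unadjusted p under 0.05. DESeq2 and limma called 0 as well. Across birth 6 of the 78 were called higher and 14 lower, where 17.5% and 9.34% of all genes were. Over the whole span 14 were called higher and 9 lower, against 20.9% and 11.5% of all genes. From P5 to P8 6 were called higher and 0 lower, against 2.88% and 0.0875%. Without the 3 libraries with thymus genes 2 were called there, with P8 down to 1 library.

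The FGF signalling list, which joins ligands and receptors with feedback inhibitors of the pathway, moved in both directions. Of its 17 genes, 10 rose and 5 fell across birth at an FDR below 0.05, where 35.4% and 35.7% of all genes did, with a median log2 fold change of 0.31. The ligand *Fgf10* was higher at E18.5 (49.5 ± 4.8 CPM) than at E15.5 (36.4 ± 0.9, FDR = 0.011) and P5 (35.3 ± 1.1, FDR = 0.0045). Its receptor *Fgfr2* went the same way, from 207 ± 18 to 265 ± 13 and down to 186 ± 10 CPM (FDR = 0.010 and 5.3e-04). *Fgf9*, an epithelial and mesothelial ligand, was 5.17-fold lower at P5 than at E18.5 (FDR = 4.8e-06) and 2.57-fold higher again at P8 (FDR = 0.0064). That rise was 1.43 on the log2 scale with an FDR of 0.060 without the 3 thymus-gene libraries, against 1.36 with them. The feedback inhibitor *Spry1* was 3.46-fold higher at P5 (FDR = 3.3e-08), and *Spry2* rose by 0.31 on the log2 scale (FDR = 0.011, and 0.060 without P5 replicate 2). The phosphatase gene *Dusp6* had a log2 fold change of -0.02 across birth (FDR = 0.85) and rose from P5 to P8 by 0.83 (FDR = 0.0013). *Spry4* rose across birth as well, by 0.75 (FDR = 2.5e-04). *Etv5* and the *Spry* genes, all known targets of FGF signalling, thus moved in opposite directions across birth. *Etv4* and *Dusp6* did not pass the threshold there, at -0.05 and -0.02 (FDR = 0.67 and 0.85).

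Other genes of the distal epithelium had large falls across birth as well. Of 19 listed, 18 were tested, and 7 were called lower across birth and 0 higher (9.34% and 17.5% of all genes), with a median of -0.54. *Hmga2*, a chromatin protein of fetal cells, went from 46.4 ± 4.4 CPM at E18.5 to 5.71 ± 0.43 at P5 (7.66-fold lower, FDR = 9.2e-09). The transcription factor gene *Foxp2* was 6.17-fold lower and the tip ligand gene *Wnt7b* 5.16-fold lower (FDR = 1.6e-09 and 1.3e-09). *Lin28b*, which keeps cells in a fetal state by blocking let-7 maturation, had 1.22 ± 0.30 CPM at E18.5 and 0.0353 ± 0.017 at P5. *Bmp4* instead fell before birth by 0.49 and rose across it by 0.77 (FDR = 0.0044 and 9.4e-06), the same directions as for *Sox4*. Unlike *Sox4*, *Bmp4* was higher at P8 than at E15.5, by 0.41 (FDR = 0.0014). *Nkx2-1*, the lung identity factor, fell across birth by 0.54 (FDR = 1.4e-04).

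Among 10 tested SOX relatives, 4 were called lower and 3 higher across birth, beside the same 9.34% and 17.5% of all genes. *Sox12*, the remaining SOXC gene, went with *Sox11* and not with *Sox4*: it stood at 193 ± 7, 176 ± 5, 59.5 ± 3.0 and 51.4 ± 1.3 CPM at the 4 time-points and was 2.78-fold lower at P5 than at E18.5 (FDR = 1.3e-09). *Sox2*, the factor of the proximal airway, was 2.47-fold lower across birth and 2.996-fold higher from P5 to P8 (FDR = 3.1e-05 and 5.8e-04), while *Sox9* had an FDR of 0.24 in that last step. *Sox17*, an endothelial gene, was 2.75-fold higher across birth (FDR = 1.8e-06). The ETS relatives gave 2 called higher and 0 lower of 15, where 17.5% and 9.34% of all genes were called. *Etv1*, the third gene of the *Etv4* and *Etv5* group, rose by 0.46 across birth (FDR = 0.0065), where *Etv5* fell. The endothelial gene *Erg* was 2.21-fold higher (FDR = 8.1e-08).

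In the MYC network 2 of 12 genes were called lower across birth and 0 higher, against 9.34% and 17.5% of all genes. *Myc* was 2.73-fold lower and *Mycl* 3.36-fold lower (FDR = 4e-05 and 2.4e-07), so that all 3 MYC genes fell. From P5 to P8 *Mycl* rose again by 0.89 on the log2 scale (FDR = 0.0027), and by 0.51 without the 3 thymus-gene libraries (FDR = 0.027). *Myc* had a change of 0.65 there (FDR = 0.046) that rested on the thymus-gene libraries: it stood at 13.5 to 14.4 CPM at P5 and at 23.4, 28.0 and 15.6 CPM at P8, and without them its change was 0.12 (FDR = 0.81). The *Myc* call was also lost in 8 of the 12 fits that left out 1 library. *Mycn* had a change of 0.09. Their partner *Max* rose by 0.24 across birth (FDR = 0.0030). Of the 6 ID and E-protein genes, 0 were called across birth with both cutoffs by edgeR. At an FDR below 0.05, 4 rose and 2 fell, where 35.4% and 35.7% of all genes did. *Id1*, *Id3* and *Id4* rose by 0.50, 0.31 and 0.37 (FDR = 8.6e-04, 5.1e-04 and 0.020), whereas *Id2* had a change of -0.02. The *Id4* call was lost without E18.5 replicate 2 or P5 replicate 3 (FDR up to 0.088). *Tcf3*, an E protein that ID2 binds, stood at 414 ± 10, 337 ± 12, 160 ± 7 and 153 ± 7 CPM and was 2.56-fold lower at P8 than at E15.5 (FDR = 1.3e-09).

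**Figure D4:**
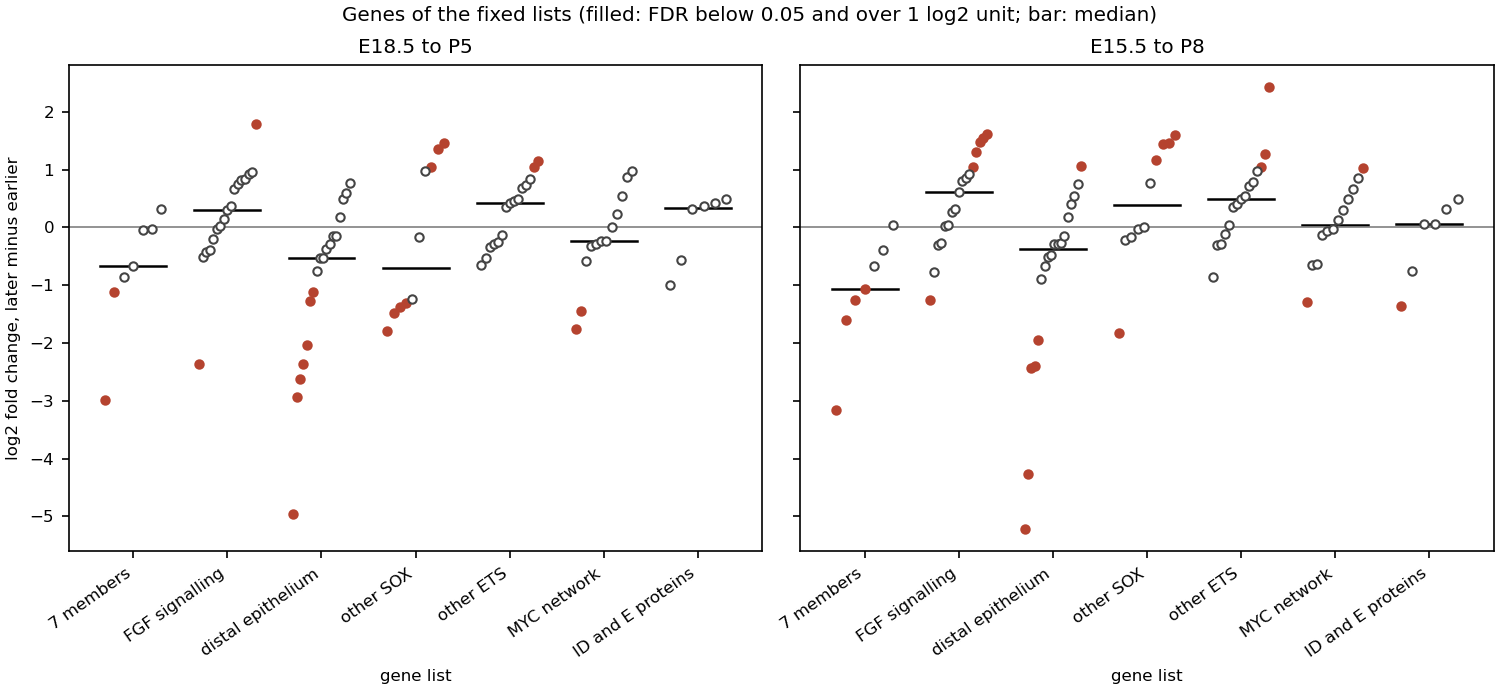
Log2 fold changes of the 7 members and of the tested genes of 6 related lists from E18.5 to P5 (left) and from E15.5 to P8 (right). Each point is 1 gene, filled where called with both cutoffs, and the bar is the list's median. The distal epithelium reaches lowest, to a fitted -4.95 for *Lin28b* across birth, a gene of few counts, whereas the FGF list has its median above 0.

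The genes most like each member were found by Pearson's r of log2 CPM over the 12 libraries among 10621 genes with a mean of at least 10 CPM. These r are descriptions without a test, since the libraries share 4 time-points and litters and a gene that changes at birth resembles any other that does. Nearest to *Sox9* were *Epb41l3*, *Ect2* and *Cct4* (r of 0.993 each), and nearest to *Mycn* were *Ppan*, *Ccar2* and *Srpk1* (0.994 each). *Etv5* was followed most closely by *Ipo9*, *Top1* and *Nfatc4* (0.991 to 0.992), and *Sox11* by *Tbp*, *Pias2* and *Polr1c* (0.979 to 0.985). The members with small changes had looser neighbours. These were *Exosc7*, *Fam110b* and *P3h3* for *Etv4* (0.948 to 0.954), *Zfr*, *Mrgbp* and *Dcun1d2* for *Id2* (0.929 to 0.946) and *Fbrsl1*, *Plekhm2* and *Ap5z1* for *Sox4* (0.885 to 0.906). No member was among the 3 nearest genes of another.

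Markers of other cells also changed across birth, in both directions. The 12 genes of dividing cells summed to 2383 to 2787 CPM in the embryonic libraries and 836 to 1075 CPM in the postnatal ones. From E18.5 to P5, 11 of the 12 were called lower, against 9.34% of all genes. The 10 cartilage genes, whose cells also use *Sox9*, summed to 143 to 214 CPM before birth, 30.5 to 45.2 CPM at P5 and 26.0 to 146 CPM at P8, and *Matn1* and *Snorc* were at 0 in all E18.5 libraries. At P8 the sum was 101 and 146 CPM in replicates 1 and 2 and 26.0 in replicate 3, where *Sox9* stood at 5.27, 6.76 and 5.59 CPM. The 8 general epithelial genes summed to 782 to 977 CPM before birth, 572 to 634 at P5 and 795 to 885 at P8. Of these 8, 2 were called lower across birth, beside the same 9.34% of all genes. The 7 AT2 genes went the other way, from 636 to 2195 CPM before birth to 15404 to 20825 CPM after it. All 7 were called higher across birth, against 17.5% of all genes. The 12 neuroendocrine and neural genes, whose cells can use *Sox11* and *Sox4*, summed to 46.1 to 70.4 CPM before birth and 74.0 to 145 CPM after it. The 7 immune genes summed to 41.9 to 55.5 CPM before birth and 159 to 308 CPM after it. Of the 6 tested, 5 rose across birth, where 35.4% of all genes did. The part of these cells in the members' values was not tested.

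**Figure D5:**
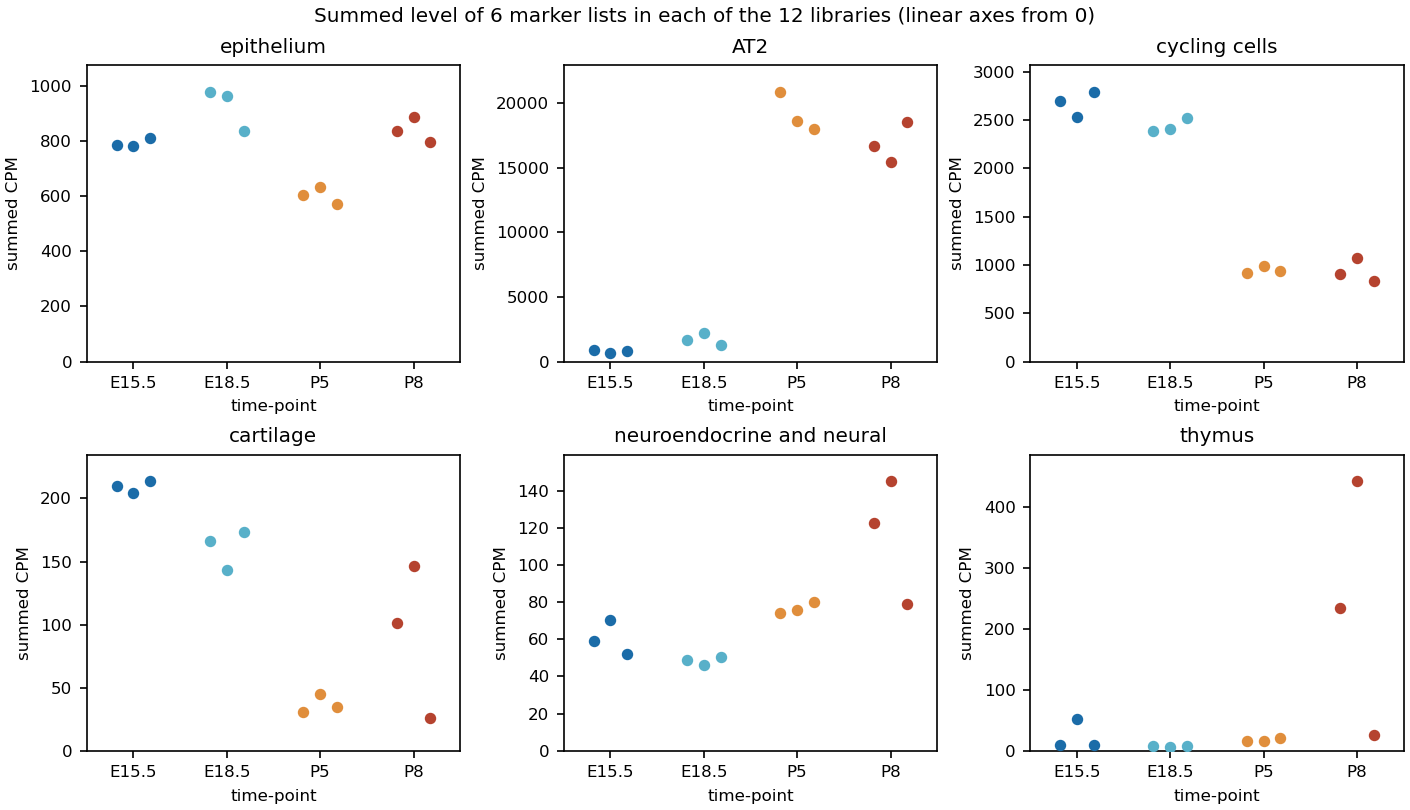
Summed CPM of 6 marker lists (vertical axes, linear from 0) in each library at the 4 time-points. Dividing-cell genes drop from 2383 CPM or more to 1075 CPM or less across birth, AT2 genes rise, and P8 replicates 1 and 2 stand out for thymus and cartilage genes.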

How the data were processed

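Whole-lung RNA of 12 libraries had been sequenced by the authors as paired-end reads. Per the labels and the study's methods, reads were mapped to mm10 with TopHat2 2.1.1 and Bowtie2 2.3.4 and counted per Gencode gene with HTSeq 0.10.0. The deposited counts are unnormalized and cover 16152 genes. The deposited CPM values divide counts by mapped reads; 100.0% of them gave whole reads within 0.01, from 48436716 to 62279460 mapped reads per library. Here, counts were fitted with edgeR 4.0.16 (TMM factors, quasi-likelihood test, 12 libraries in 1 fit; genes with at least 1 CPM in 3 libraries), with Benjamini-Hochberg FDR over 15994 genes. A gene was called at FDR below 0.05 and an absolute log2 fold change above 1, the cutoffs of the study, and "rose" or "fell" required the FDR alone. Levels are CPM, mean ± SD (n = 3). Ratios of counts were compared by exact permutation (scipy 1.17.1). Alternatives were DESeq2 1.42.0, limma 3.58.1 (voom, and log2(CPM + 1) or log2(CPM + 0.1)), other scalings, no filter, a replicate block, each library left out, the reads recovered from CPM and, chosen after seeing the data, the libraries with thymus genes left out and *Cdh1* for *Epcam*. The scripts were tested on simulated data. Gene positions and lengths came from Gencode vM21, and sequences from RefSeq. The members and lists were chosen with earlier results of these data known. Named list genes were up to 4 called genes of largest change per list and comparison with a mean of at least 1 CPM, plus direct partners of a member. The splicing table was not used here.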

Additional observations from a re-analysis of the deposited data

How the results depend on the processing

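The members' calls held in most settings. Of the alternative values of member log2 fold changes past the FDR threshold, 478 kept direction and threshold and 23 lost the threshold; of those not past it, 281 kept both, 6 passed and 10 changed sign. The cause was not tested for any of these. With the FDR alone, 5, 5 and 1 members were counted in the 3 successive intervals, and 22, 66, 26 and 62 genes of the 6 lists in those and the whole span. With only the time-points compared in the fit, 1 list gene was called from E15.5 to E18.5. Leaving out single libraries gave 0 to 1 list genes there and 3 to 9 from P5 to P8 (2 without the 3 libraries with thymus genes, which leaves 1 at P8), and 3 to 6 members whose 2 first steps differed. Over the same fits the log2 fold change of *Sox11* before birth ran from -0.18 to 0.044, those of *Id2* and *Etv4* across birth from -0.059 to 0.054 and from -0.12 to 0.040, and the *Mycn* to *Myc* ratio from -0.054 to 0.16. Across birth *Id2* came to 0.00029 with RLE factors and 0.00024 with DESeq2. Without the thymus-gene libraries *Id2* and *Etv5* came to 0.021 and 0.15 from P5 to P8 and the *Mycn* to *Myc* ratio to 0.28. *Sox4* over the span came to -0.036 with library size alone, -0.042 with limma on log2(CPM + 1) and -0.042 on log2(CPM + 0.1). Other scalings moved the median of all genes by less than 0.1 log2 units.

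With only E18.5 against P5, a comparison of 3 libraries with 3 that was not tested, the ratios came to 0.82 for *Etv4* to *Etv5*, 0.054 for *Mycn* to *Mki67*, and 1.61, 0.76 and 1.57 for *Id2*, *Etv5* and *Etv4* to *Epcam*. With *Cdh1* for *Epcam* these last 3 were -0.55, -1.31 and -0.70 over all libraries. The reads recovered from CPM gave the same counts of called members.

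The replicate numbers do not pair the samples: same-numbered libraries of different time-points had deviations correlated at -0.142 to 0.266 (median -0.015, 18 pairs), and differently numbered ones at -0.311 to 0.239. With the number as a replicate block, 0, 2, 0 and 4 members were called, as without it, and the *Sox9* step before birth was -0.47 (FDR = 0.050). At these depths counting error is small, and 3 littermates per time-point limit the precision.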
